A study of Homo sapiens with 12 samples.

Results

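The 10 genes described here encode the enzymes that build the purine nucleotides inosine, adenosine and guanosine monophosphate (IMP, AMP and GMP): PPAT, GART, PAICS, ADSL, ATIC, ADSS1, ADSS2, IMPDH1, IMPDH2 and GMPS. They were picked by symbol from a table of 52859 genes, of which 16051 had enough reads to be tested, and all 10 were among those 16051. The set was drawn up with the levels of these genes across the groups already known, ADSS1 in particular. The values of the 10 genes are thus given as a description and without p-values. Calls at an adjusted p threshold are listed beside the share over all tested genes, and nothing is read from them.

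Purine rings are built on ribose phosphate in a fixed series of steps. PPAT carries out the first committed step, GART, PAICS, ADSL and ATIC the later ones, and ATIC releases IMP, from which the path splits. Adenylosuccinate synthase (ADSS1 or ADSS2) joins aspartate to IMP and ADSL then removes fumarate to leave AMP, whereas IMP dehydrogenase (IMPDH1 or IMPDH2) oxidises IMP to XMP and GMPS aminates it to GMP. ADSS1 is known as the form that prevails in muscle, where it works with AMP deaminase in the purine nucleotide cycle, and ADSS2 as the form found in most tissues. Glutamine, glycine, aspartate and folate-bound formyl groups, in part made by mitochondria, supply the ring's atoms.

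All 12 libraries came from MDA-MB-231, an established human line of triple-negative breast cancer, in 4 groups of 3. Cells were transfected by Lipofectamine 2000 with 20 nM of a locked nucleic acid oligonucleotide (LNA, a short modified antisense strand) and collected on day 2. The groups were a control LNA, 2 different LNAs against the mitochondrial tRNA for asparagine (mtAsn-1 and mtAsn-2), and an LNA against the mitochondrial tRNA for lysine (mtLys). The labels do not say whether the replicates were separate cultures, so the spread given may be technical, and every group is 1 cell line.

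Library totals ran from 17978825 to 37708993 assigned reads. Levels are counts per 1000000 reads (CPM) on normalised library sizes, as mean ± SD with n = 3. The line's defining genes VIM, CD44, EGFR and AXL were high in every library, with summed levels between 4900 and 6130 CPM. Of 6 luminal and epithelial markers, ESR1 stayed at or under 0.286 CPM, PGR at or under 0.0312 and CDH1 at or under 0.523. ERBB2 held 89.4 to 120 CPM, GATA3 10.2 to 14.2 and EPCAM 3.45 to 6.21. The luminal sum was 107 to 110 CPM in controls, 118 to 121 under mtAsn-1, 138 to 139 under mtAsn-2 and 113 to 117 under mtLys. Of 12 muscle markers, MYH1, MYH2 and TNNT3 had no reads, and the summed muscle level, nearly all TNNT1, lay at 112 to 116 CPM in controls and 124 to 138 CPM with the LNAs. The leukocyte sum was 75.7 to 79.9 CPM in controls and 88.9 to 119 CPM with the LNAs, mostly CD68, while PTPRC stayed at or under 0.343 CPM. The fibroblast sum was 63.2 to 72.7 CPM in controls and 41.4 to 66.9 CPM with the LNAs, with DCN at 0. The part of these markers in the results below was not tested. Replicate 2 of mtAsn-1 stood apart from its group on the third principal component, at 27.4 against 4.52 and 8.54, and the ADSS1 log2 difference from control was −1.81 without it and −1.77 with it.

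The promoter-proximal DNA of 3 loci is printed because their genes carry the largest differences (ADSS1, IMPDH1) or share 1 start region (PPAT and PAICS). Each stretch is from RefSeq, build GRCh38.p14, runs 5′ to 3′ on the gene's strand, and holds no annotated exon. Capitals mark the GC box GGGCGG or its complement CCGCCC, counted on both strands. ADSS1 is shown at chr14:104723979-104724196 on the plus strand, the PPAT-PAICS gap at chr4:56435616-56435748 on the minus strand of PPAT, and IMPDH1 at chr7:128409990-128410232 on the minus strand.
ADSS1 upstream: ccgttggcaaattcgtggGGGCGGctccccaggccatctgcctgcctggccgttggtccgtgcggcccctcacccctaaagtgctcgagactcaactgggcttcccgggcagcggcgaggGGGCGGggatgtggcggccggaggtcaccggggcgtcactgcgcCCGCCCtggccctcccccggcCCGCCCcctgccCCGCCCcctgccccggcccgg
PPAT-PAICS gap: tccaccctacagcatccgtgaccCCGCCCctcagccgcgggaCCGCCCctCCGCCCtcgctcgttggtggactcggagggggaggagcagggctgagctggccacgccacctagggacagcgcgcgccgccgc
IMPDH1 upstream: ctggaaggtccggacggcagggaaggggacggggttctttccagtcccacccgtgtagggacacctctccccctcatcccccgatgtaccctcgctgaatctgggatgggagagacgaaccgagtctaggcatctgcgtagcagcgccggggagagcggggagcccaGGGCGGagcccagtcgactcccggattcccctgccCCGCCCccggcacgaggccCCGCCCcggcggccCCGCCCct

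The ADSS1 stretch of 218 bases was 77.1% G and C with 5 GC boxes. The PPAT-PAICS gap of 133 bases was 75.2% G and C with 3, and the IMPDH1 stretch of 243 bases was 71.2% with 4. Windows from 250 bases before to 50 after the start were found for 8 of the 10 genes, namely all but ADSL and IMPDH2, and all 8 genes had a GC box in a window, against 48.3% of 27305 genes. The E-box CACGTG, the letters bound by MYC, occurred in windows of PPAT, PAICS and ATIC, against 8.77% of all genes, with the PPAT and PAICS windows overlapping each other. The ATF4-type motif TGATGNAA, searched on both strands, occurred in none of the 8, against 4.46% of all genes. These are matches of letters only.

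ADSS1, at chromosome 14, 104724197 to 104747325, plus strand (build hg38), was lower with each LNA. Its 3 control libraries held 7.58, 8.55 and 7.38 CPM, from 203, 263 and 138 reads. Under mtAsn-1 the levels were 2.36, 2.46 and 2.16 CPM from 48, 43 and 60 reads. Under mtAsn-2 they were 2.34, 2.75 and 2.37 CPM from 85, 88 and 78 reads. Under mtLys they were 3.53, 3.22 and 4.02 CPM from 131, 110 and 108 reads. Every LNA library thus lay below every control library, and the mtLys libraries lay above both mtAsn groups, which overlapped each other. The order was control (7.83 ± 0.625 CPM), mtLys (3.59 ± 0.403), mtAsn-2 (2.49 ± 0.227) and mtAsn-1 (2.33 ± 0.155).

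The fitted log2 differences of ADSS1 from control were −1.77 (SE 0.133) under mtAsn-1, −1.66 (SE 0.120) under mtAsn-2 and −1.14 (SE 0.114) under mtLys, which is 3.41-, 3.17- and 2.21-fold lower. The 3 comparisons share the control libraries. Between LNAs the log2 difference was −0.11 (SE 0.153) for mtAsn-1 against mtAsn-2, −0.63 (SE 0.145) for mtAsn-1 against mtLys and −0.52 (SE 0.130) for mtAsn-2 against mtLys. ADSS1 was the only one of the 10 to be at least 2-fold lower, where 3.50% of all tested genes were called and at least 2-fold lower under mtAsn-1, 3.46% under mtAsn-2 and 3.14% under mtLys. In a bulk sample, fewer expressing cells and less RNA per cell cannot be told apart. It was a weakly expressed gene here: 31.4% of tested genes had a lower mean log2 CPM. Inside it lies LOC107984670 on the opposite strand, which held 16 reads in the 12 libraries together.

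ADSS2, the partner on chromosome 1 (244408492 to 244452060, minus strand), stayed within a narrow range. Its means were 60.9 ± 2.42 CPM in control, 61.3 ± 1.23 under mtAsn-1, 55.4 ± 1.89 under mtAsn-2 and 59.1 ± 0.674 under mtLys. The mtAsn-2 libraries, at 57.1, 55.8 and 53.4 CPM, lay below the lowest control of 59.5 CPM, with a log2 difference of −0.14 (SE 0.0464), and the other 2 LNA groups overlapped the control. Per length, ADSS2 was the main form in every group: 15.7 RPKM (CPM per kilobase of gene) against 3.46 for ADSS1 in control.

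The share of ADSS1 in the summed per-length level of the pair was 18.1% ± 0.6 in control, 6.11% ± 0.457 under mtAsn-1, 7.15% ± 0.618 under mtAsn-2 and 9.44% ± 1.0 under mtLys. No LNA library exceeded 10.5%, and no control library was under 17.5%. The summed level of the pair went from 19.2 RPKM in control to 16.8 under mtAsn-1, 15.4 under mtAsn-2 and 16.8 under mtLys. ADSS2 thus made up most of the summed level in all 4 groups.

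**Figure D1:**
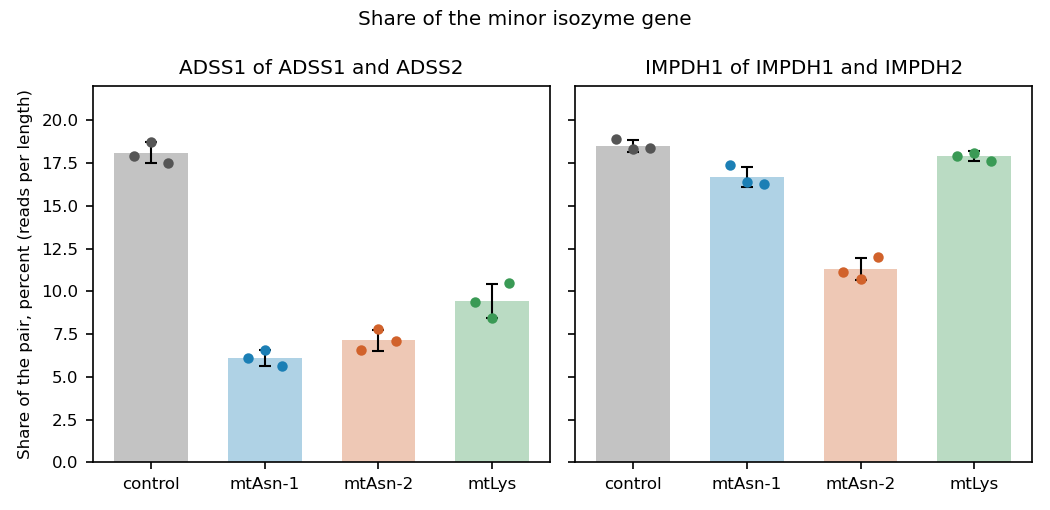
Share (%) of ADSS1 in ADSS1 plus ADSS2 and of IMPDH1 in IMPDH1 plus IMPDH2, per length, for each of the 12 libraries by LNA group as points, with bars for the group mean and error bars for the SD (n = 3). The ADSS1 share is 18.1% in control and 6.11% to 9.44% with the LNAs, and the IMPDH1 share is 11.3% under mtAsn-2 and 16.7% to 18.5% elsewhere.

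IMPDH1, at chromosome 7, 128392277 to 128409989, minus strand, was lower under mtAsn-2. Its levels were 124, 124 and 129 CPM in control, 121, 116 and 116 under mtAsn-1, 81.9, 78.0 and 86.0 under mtAsn-2, and 126, 125 and 126 under mtLys. The mtAsn-2 libraries lay far below all others, the mtAsn-1 libraries just below control, and the mtLys libraries among the controls. The log2 difference from control was −0.62 (SE 0.0423) under mtAsn-2, which is 1.53-fold lower, −0.09 (SE 0.0424) under mtAsn-1 and 0.00 under mtLys. The 2 LNAs against the same tRNA differed by 0.52 (SE 0.0427) on the log2 scale, under mtAsn-1 higher.

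IMPDH2, the form usually prominent in dividing cells, on chromosome 3 (49024325 to 49029750, minus strand), was the highest of the 10 per length. Its level was 193 RPKM in control, 205 under mtAsn-1, 225 under mtAsn-2 and 201 under mtLys. In CPM the libraries were 385, 403 and 414 in control and 473, 471 and 458 under mtAsn-2, a log2 difference of 0.22 (SE 0.0373). Under mtAsn-1 it was 0.09 and under mtLys 0.06. The share of IMPDH1 in the per-length sum of the pair was 18.5% ± 0.334 in control, 16.7% ± 0.589 under mtAsn-1, 11.3% ± 0.636 under mtAsn-2 and 17.9% ± 0.273 under mtLys, while the sum stayed between 237 and 254 RPKM. Processed copies of IMPDH1 elsewhere in the genome held 0.42% as many reads as IMPDH1.

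GMPS, which turns XMP into GMP with glutamine nitrogen (chromosome 3, 155869430 to 155944020, plus strand), was slightly higher with all 3 LNAs. Its libraries were 84.1, 87.5 and 83.1 CPM in control, 90.5, 93.6 and 92.9 under mtAsn-1, 101, 98.6 and 91.2 under mtAsn-2, and 95.5, 90.0 and 95.6 under mtLys. All 9 LNA libraries lay above the highest control. The log2 differences were 0.12 (SE 0.0466), 0.19 (SE 0.0455) and 0.14 (SE 0.0456) for mtAsn-1, mtAsn-2 and mtLys.

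**Figure D2:**
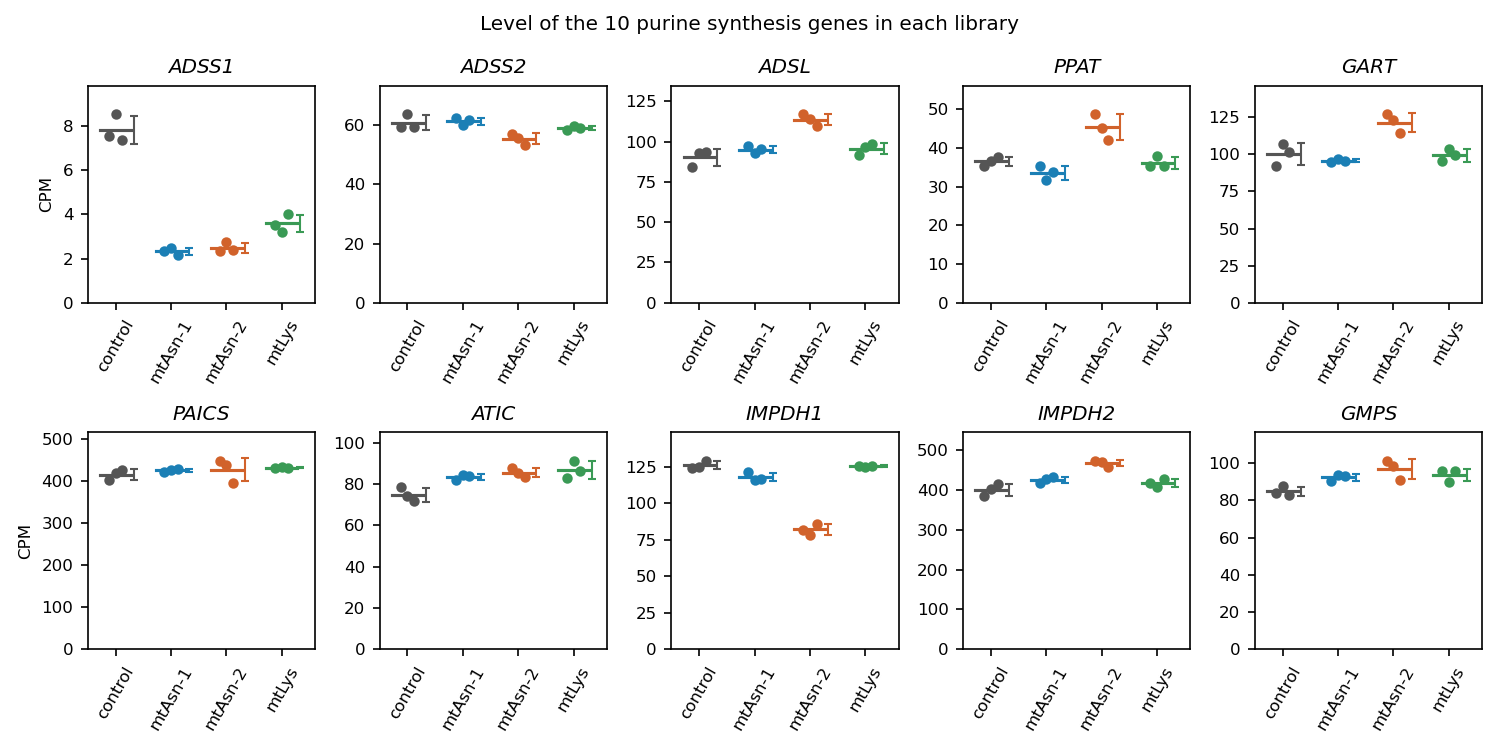
CPM of each of the 10 genes in the 12 libraries by LNA group, as points, with a line for the group mean and an error bar for the SD (n = 3). ADSS1 sits between 7.38 and 8.55 CPM in control and between 2.16 and 4.02 CPM with the LNAs, and IMPDH1 between 78.0 and 86.0 CPM under mtAsn-2.

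PPAT, the enzyme of the first committed step, and PAICS lie head to head on chromosome 4 (PPAT 56393362 to 56435615, minus strand, and PAICS 56435749 to 56464578, plus strand), separated by the 133 bases printed above. PPAT held 35.4, 36.6 and 37.6 CPM in control, 35.4, 31.8 and 33.7 under mtAsn-1, 48.7, 45.2 and 42.0 under mtAsn-2, and 35.2, 37.97 and 35.2 under mtLys. All 3 mtAsn-2 libraries of PPAT lay above all controls, the mtLys libraries overlapped the controls, and the highest mtAsn-1 library, at 35.37 CPM, lay just under the lowest control of 35.40 CPM. The log2 difference was 0.31 (SE 0.0575) under mtAsn-2, −0.12 (SE 0.0614) under mtAsn-1 and −0.01 under mtLys. PAICS did not share that difference: it was 415 ± 12.6 CPM in control, 426 ± 3.66 under mtAsn-1, 427 ± 27.3 under mtAsn-2 and 431 ± 1.67 under mtLys, with log2 differences of 0.04, 0.04 and 0.06. Per length, PAICS was at 63.1 to 65.7 RPKM in the 4 groups against 9.13 to 12.3 for PPAT. Copies of PAICS elsewhere in the genome held 0.424% as many reads as PAICS.

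GART, which carries 3 of the steps in a single protein, lies on chromosome 21 (33503931 to 33542892, minus strand). It held 92.1, 107 and 102 CPM in control and 127, 123 and 114 under mtAsn-2, which do not overlap, and the log2 difference was 0.28 (SE 0.0502). Under mtAsn-1 it was at 95.6 ± 1.04 CPM and under mtLys at 99.5 ± 4.34, both within the control range. Between the 2 asparagine tRNA LNAs, the log2 difference of mtAsn-1 from mtAsn-2 was −0.35 for GART and −0.43 for PPAT.

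ADSL, which acts both on the way to IMP and between adenylosuccinate and AMP, lies on chromosome 22 (40346500 to 40387489, plus strand). It held 84.1, 93.1 and 93.4 CPM in control, 97.2, 92.8 and 95.1 under mtAsn-1, 117, 114 and 110 under mtAsn-2, and 91.9, 96.6 and 98.6 under mtLys. The mtAsn-2 libraries lay above all others. The log2 difference from control was 0.33 (SE 0.0459) under mtAsn-2, 0.08 under mtAsn-1 and 0.09 under mtLys. SGSM3, which overlaps it on the same strand, stood at 66.9 to 79.9 CPM and was not called in any comparison with control.

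ATIC, the enzyme of the last 2 steps to IMP (chromosome 2, 215311974 to 215359745, plus strand), was higher with every LNA. It held 78.4, 74.2 and 71.7 CPM in control, 81.9, 84.1 and 84.0 under mtAsn-1, 87.8, 85.3 and 83.3 under mtAsn-2, and 82.7, 91.2 and 86.3 under mtLys. All 9 LNA libraries lay above all 3 controls. The log2 differences were 0.15 (SE 0.0475), 0.19 (SE 0.0463) and 0.21 (SE 0.0463), and the 3 LNA groups overlapped one another.

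**Figure D3:**
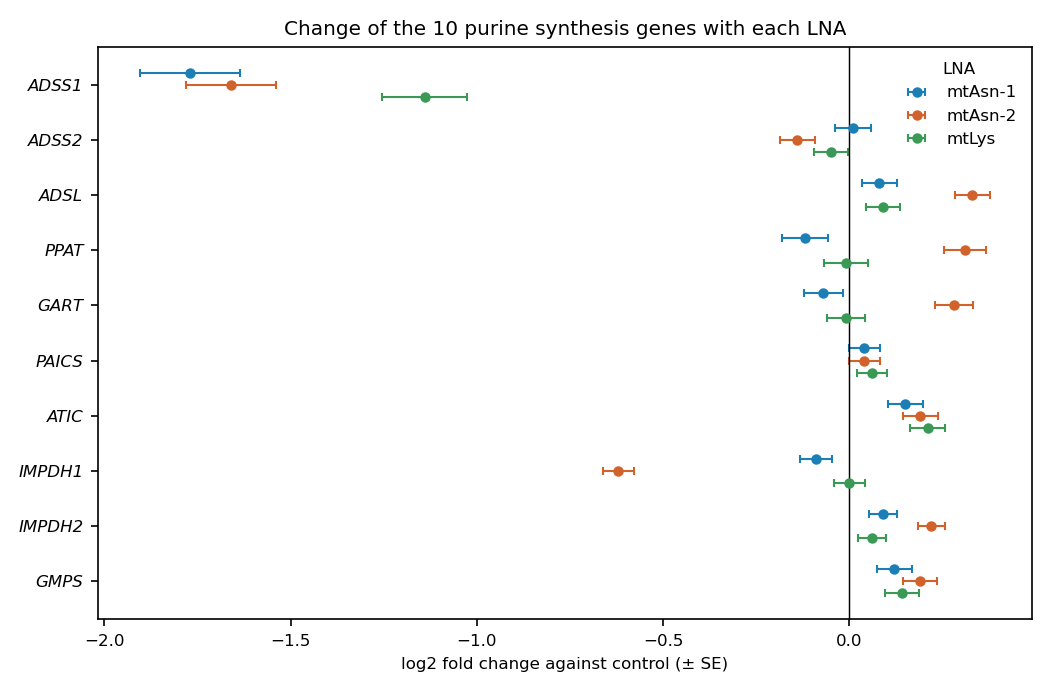
log2 fold change of each of the 10 genes against control with each LNA, as a point with its SE (edgeR fit of all 12 libraries). ADSS1 lies at −1.77, −1.66 and −1.14, IMPDH1 at −0.62 under mtAsn-2, and PPAT, GART and ADSL at 0.28 to 0.33 under mtAsn-2.

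At the adjusted p threshold of 0.05, 3 of the 10 genes were called under mtAsn-1 (ATIC and GMPS higher, ADSS1 lower), where 48.5% of all tested genes were called. Under mtAsn-2, 9 of 10 were called, where 51.1% of all genes were: PPAT, GART, ADSL, ATIC, IMPDH2 and GMPS were higher and ADSS1, ADSS2 and IMPDH1 lower, with PAICS not called. Under mtLys, 3 of 10 were called (ATIC and GMPS higher, ADSS1 lower), where 48.5% of all genes were. By direction, the shares of all tested genes were 24.3% higher and 24.2% lower under mtAsn-1, 24.1% and 27.0% under mtAsn-2, and 24.6% and 23.9% under mtLys. The balance under mtAsn-2, 3862 higher and 4337 lower, turned to 4268 and 3955 with no low-count filter and to 4072 and 4052 with the compared groups alone. The call of ADSS2 under mtAsn-2 was lost without control replicate 2 or mtAsn-2 replicate 3. That of GMPS under mtAsn-1 was lost without control replicate 1 or 3 or mtAsn-1 replicate 2 or 3, and under mtLys without mtLys replicate 1. Other calls were gained. PAICS passed under mtAsn-2 without mtAsn-2 replicate 3. Under mtAsn-1, GART passed without control replicate 1, and IMPDH1 with a stricter low-count filter. IMPDH2 passed under mtAsn-1 with DESeq2 and without control replicate 3, mtAsn-2 replicate 3 or mtLys replicate 2. Between LNAs the counts were 6 of 10 for mtAsn-1 against mtAsn-2 (46.5% of all genes), 1 of 10, ADSS1, for mtAsn-1 against mtLys (5.26%, or 845 genes, and 404 without mtLys replicate 2), and 6 of 10 for mtAsn-2 against mtLys (48.6%). Nothing is read from these counts, since the levels were known when the genes were chosen. The median log2 difference of the 10 genes was 0.02 under mtAsn-1, 0.19 under mtAsn-2 and 0.03 under mtLys, beside 0.00, −0.01 and 0.00 over all tested genes.

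The neighbours of ADSS1 on chromosome 14 were measured for comparison. Of 8 tested genes within 100 kb, INF2, an actin-regulating formin that ends 1662 bases before ADSS1, fell with every LNA. INF2 went from 499 ± 36.3 CPM in control to 428 ± 20.1 under mtAsn-1 (log2 difference −0.22, edgeR adjusted p = 0.000547), 331 ± 20.9 under mtAsn-2 (−0.59, 2.92e-10) and 439 ± 8.45 under mtLys (−0.19, 0.00268). Its largest fall, under mtAsn-2, was smaller than the smallest ADSS1 difference. LOC107987209, on the opposite strand, has its 3′ end 450 bases beyond ADSS1. It fell by 0.46 on the log2 scale under mtAsn-1 (edgeR adjusted p = 0.000296), by 0.47 under mtAsn-2 (8.67e-05) and by 0.24 under mtLys (0.028). The mtLys call was lost under DESeq2 (0.0964) and with no low-count filter (0.0922). It was also lost without control replicate 2 or 3 or mtLys replicate 1 or 3 (log2 −0.21 to −0.23). AKT1, the kinase, rose slightly with each LNA, by 0.18, 0.19 and 0.15 (edgeR adjusted p = 0.000357, 0.000109 and 0.00171). SIVA1 was not called, at −0.02, −0.04 and −0.12 (edgeR adjusted p = 0.77, 0.533 and 0.0655, the last passing without mtAsn-1 replicate 1 or 2 or with the compared groups alone). The long non-coding LINC02280 was not called, nor was LINC00638, which passed under mtAsn-1 without mtAsn-1 replicate 3 (−0.48, edgeR adjusted p = 0.0453). ZBTB42 was called under mtAsn-1 (−0.31, edgeR adjusted p = 0.013, but 0.0537 without replicate 2 of mtAsn-1), and under mtLys it passed without mtLys replicate 2 (−0.28, 0.0266). The low LOC102723342, which overlaps AKT1 and LOC107987209, held 5, 3 and 2 reads in the control libraries and 9 to 34 in the LNA libraries. Its log2 differences were 2.15, 2.71 and 1.90. They are given without p-values, because it passed the count filter only through the LNA groups. Whether reads were counted by strand is not given in the sources used here.

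Among 10853 tested genes with a mean log2 CPM of at least 2, the levels most like those of ADSS1 over the 12 libraries, by Pearson's r, were of ARFGAP3 (0.989), IGFBP6 (0.987), FNTA (0.982), TXNIP (0.981) and CITED2 (0.98). These are correlations over 4 groups of libraries, a description without a test. By Spearman's rho the first 5 were ARFGAP3, FBXO42, FNTA, POLK and IGFBP6, so that TXNIP and CITED2 were not among them, and 15 of the first 50 genes were shared by both measures. TXNIP, which binds thioredoxin and curbs glucose uptake, went from 211 ± 12.2 CPM in control to 71.6 ± 9.12 under mtAsn-1, 76.8 ± 3.74 under mtAsn-2 and 92.6 ± 10.5 under mtLys. IGFBP6, a binding protein of insulin-like growth factors, went from 78.3 ± 8.15 to 41.4 ± 1.98, 43.7 ± 1.48 and 50.9 ± 3.20 CPM. The transcription co-regulator CITED2 went from 94.3 ± 3.29 to 53.0 ± 3.54, 55.2 ± 1.95 and 64.4 ± 0.877 CPM. ARFGAP3, which acts in Golgi transport, had 72.3 ± 1.26 CPM in control and 57.0, 59.3 and 62.1 with the LNAs. The other purine genes had r with ADSS1 from −0.758 (ATIC) to 0.516 (IMPDH1).

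The enzymes around the purine path were taken as 9 lists with 91 genes, 86 of them tested. Under mtAsn-1, 52 of the 86 were called, under mtAsn-2 59 and under mtLys 45, beside 48.5%, 51.1% and 48.5% of all tested genes. These calls were 60.5%, 68.6% and 52.3% of the 86. Under a stricter count filter, which dropped weakly expressed genes, 50, 56 and 45 of 79 were called. Of all 10851 genes tested there, 6434, 6657 and 6289 were called, a larger share than without that filter. The median log2 differences over the 86 were 0.08, 0.05 and 0.06, beside 0.00, −0.01 and 0.00 over all tested genes. Of all tested genes, 24.3%, 24.1% and 24.6% were called higher and 24.2%, 27.0% and 23.9% lower. The lists were chosen with earlier results of these data known. Their counts and the adjusted p-values of their genes are thus a description and not independent support. In salvage and nucleoside transport, 6 of 8 tested genes rose and 1 fell under mtAsn-1, 5 rose and 2 fell under mtAsn-2, and 6 rose and 1 fell under mtLys (list medians 0.32, 0.22 and 0.26, in the order mtAsn-1, mtAsn-2, mtLys used from here on). DGUOK, the mitochondrial deoxyguanosine kinase, rose from 21.7 ± 0.876 CPM to 35.7 ± 0.611, 36.6 ± 1.12 and 39.1 ± 1.61 CPM (log2 0.72, 0.76 and 0.85; edgeR adjusted p = 4.78e-11, 4.91e-12 and 7.15e-13). APRT, which salvages adenine, rose from 80.2 ± 2.15 CPM to 112, 109 and 105 CPM (edgeR adjusted p = 5.62e-10, 1.15e-09 and 2.3e-08). SLC29A3, an intracellular nucleoside transporter, fell by 0.83, 1.11 and 0.41 on the log2 scale (edgeR adjusted p = 8.48e-07, 3.23e-09 and 0.00147).

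ADK, adenosine kinase, went in opposite directions: it rose under mtAsn-1 (log2 0.31, edgeR adjusted p = 1.71e-05) and mtLys (0.27, 5.4e-05) and fell under mtAsn-2 (−0.33, 4.12e-06). The direct comparison of mtAsn-1 under mtAsn-2 gave 0.64 (edgeR adjusted p = 4.03e-11). The nearby list of deamination, reduction and breakdown had 9 rises and 1 fall of 12 under mtAsn-1, 10 and 1 under mtAsn-2, and 9 and 1 under mtLys (medians 0.33, 0.22 and 0.27). NT5E (CD73), which makes adenosine from extracellular AMP, rose from 893 ± 4.76 CPM to 1293 ± 82.1, 1032 ± 24.8 and 1237 ± 57.3 CPM (log2 0.53, 0.21 and 0.47; edgeR adjusted p = 3.52e-11, 0.000148 and 3.71e-10). ADA, adenosine deaminase, rose from 1.51 ± 0.285 CPM to 3.08, 4.28 and 2.43 CPM (edgeR adjusted p = 0.00013, 3.07e-08 and 0.0046). AMPD3, an AMP deaminase, rose under mtAsn-1 (0.68, edgeR adjusted p = 3.11e-08) and mtLys (0.65, 3.93e-08), and was at 0.15 under mtAsn-2 (0.111), where the direct difference of mtAsn-1 from mtAsn-2 was 0.53 (8.85e-07). GMPR, which returns GMP to IMP, rose by 0.69, 0.42 and 0.52 (edgeR adjusted p = 5.94e-08, 5.59e-05 and 3.73e-06), while the nucleotidase NT5C2 fell by 0.42, 0.59 and 0.17 (2.75e-07, 3.16e-10 and 0.0096).

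The aspartate and fumarate list had 4 rises and 3 falls of 9 under mtAsn-1, 3 and 4 under mtAsn-2, and 4 and 2 under mtLys (medians 0.09, −0.02 and 0.08). Its argininosuccinate enzymes moved apart. ASS1, which joins aspartate to citrulline much as ADSS joins it to IMP, fell from 24.7 ± 1.44 CPM to 11.9 ± 1.29, 15.2 ± 0.43 and 12.4 ± 1.07 CPM (edgeR adjusted p = 1.61e-11, 5.89e-09 and 1.56e-11). ASL, which then releases fumarate, rose from 21.5 ± 0.791 CPM to 40.4 ± 1.45, 31.5 ± 1.18 and 34.97 ± 1.12 CPM (edgeR adjusted p = 5.21e-13, 3.84e-09 and 4.33e-11). GOT1, the cytosolic aspartate transaminase, rose by 0.39, 0.41 and 0.24 (2.79e-07, 4.4e-08 and 0.000225, edgeR adjusted p).

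Ribose phosphate supply, with 11 genes, had 2 rises and 2 falls under mtAsn-1, 2 and 6 under mtAsn-2, and 2 and 1 under mtLys (medians −0.01, −0.14 and −0.07). TKT fell in all 3, by 0.22, 0.55 and 0.32 (edgeR adjusted p = 1.21e-05, 7.7e-13 and 4.37e-08). Folate one-carbon supply had 3 rises and 2 falls of 10, 3 and 1, and 2 and 2 (medians −0.11, −0.04 and −0.13). Its mitochondrial dehydrogenase MTHFD2L fell with each LNA, by 0.64, 0.52 and 0.74 (edgeR adjusted p = 1.54e-06, 7.19e-06 and 5.74e-08), while MTHFD2 fell under mtAsn-1 and mtLys (−0.25 and −0.41, 0.00036 and 2.78e-07) and rose under mtAsn-2 (0.46, 1.54e-08).

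The 12 purine nucleotide kinases had 2 rises and 2 falls under mtAsn-1, 4 and 4 under mtAsn-2, and 2 and 1 under mtLys (medians 0.05, 0.01 and 0.06). GUK1, guanylate kinase, rose by 0.27, 0.23 and 0.29 (edgeR adjusted p = 2.25e-06, 1.93e-05 and 6.03e-07). AK5 went in opposite directions: it fell under mtAsn-2 (−1.17, edgeR adjusted p = 8.66e-08) and was called higher under mtLys. Its means were 4.57 ± 0.753 CPM in control, 4.51 ± 0.352 under mtAsn-1, 2.02 ± 0.275 under mtAsn-2 and 6.28 ± 0.123 under mtLys. Ribonucleotide reductase and dNTP control, with 4 genes, had 1 rise and 2 falls, 2 and 0, and 1 and 1 (medians −0.04, 0.17 and 0.00), with RRM2 up by 0.32, 0.32 and 0.33 (edgeR adjusted p = 6.61e-05, 5.83e-05 and 3.62e-05). The 10 pyrimidine genes had 4 rises and 1 fall, 3 and 4, and 2 and 1 (medians 0.12, 0.02 and 0.02). CAD, the first pyrimidine enzyme, rose by 0.23, 0.49 and 0.25 (edgeR adjusted p = 0.000409, 4.25e-09 and 0.000169), and UCK2 and DHODH fell under mtAsn-2 (−0.54 and −0.50, edgeR adjusted p = 7.79e-11 and 2.65e-05).

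Of 10 genes of the MYC network and ATF4, transcription factors known to act on purine and serine genes, 3 rose and 4 fell under mtAsn-1, 1 and 4 under mtAsn-2, and 2 and 5 under mtLys (medians −0.10, 0.00 and −0.12). MYC rose by 0.27, 0.49 and 0.20 (edgeR adjusted p = 8.23e-06, 1.38e-10 and 0.000336). MXD4, a MYC antagonist, fell by 0.91, 0.91 and 0.63 (edgeR adjusted p = 7.97e-14, 1.74e-14 and 4.13e-11), and ATF4 fell under mtAsn-1 and mtLys by 0.28 and 0.43 (2e-07 and 6.31e-11). Its call under mtAsn-2 (−0.09, edgeR adjusted p = 0.0347) was lost with RLE factors (0.0533), with no low-count filter (0.322), with the replicate block (0.0572), with the compared groups alone (0.118), and without control replicate 2, mtAsn-2 replicate 1 or 2, or mtLys replicate 2 (0.0608 to 0.169). DGUOK, ADK, SLC29A3, NT5C2, ASS1, MTHFD2, MTHFD2L and RRM2 overlap a gene on the opposite strand. On their own strand, ATF4 overlaps MIEF1, GOT1 overlaps LOC107984261, MXD4 overlaps MIR4800, AK5 overlaps RNU7-8P and UCK2 overlaps MIR3658. ADK also overlaps RPSAP6, MRPL35P3 and POLR3DP1 on its own strand. Part of the reads of all these genes may thus belong to the partner.

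**Figure D4:**
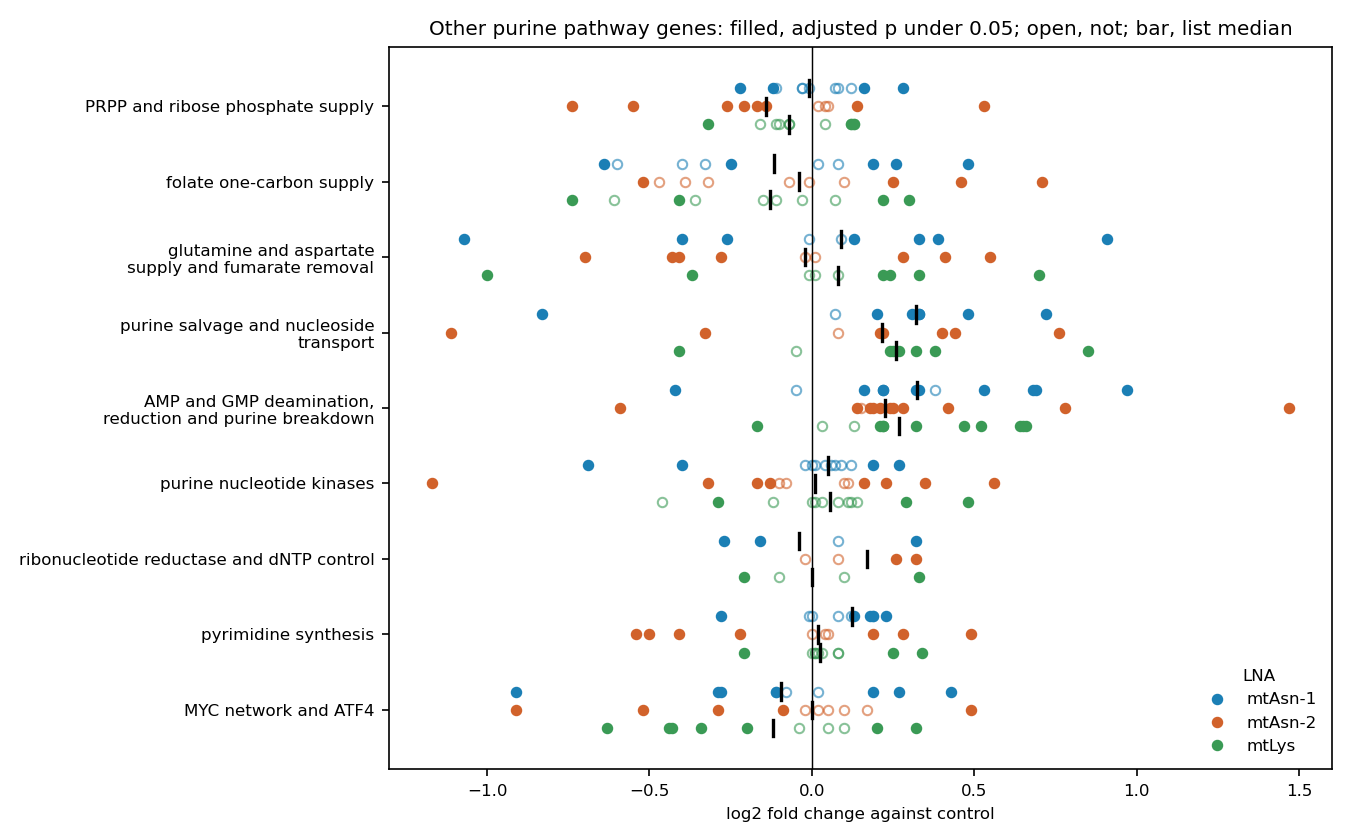
log2 fold change against control of each of the 86 tested genes in the 9 lists around the purine path, 1 point per gene and LNA, filled where the edgeR adjusted p was under 0.05 and open where not, with a vertical bar at each list's median. The medians of the salvage list (0.32, 0.22 and 0.26) and of the breakdown list (0.33, 0.22 and 0.27) lie furthest to the right for mtAsn-1, mtAsn-2 and mtLys.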

How the data were processed

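The deposited values are whole read counts per gene for 12 libraries. Per the submitters' processing notes, FastQC, STAR 2.6.0a, featureCounts, DESeq2 and hg38 were named, with no role given, and per the labels' protocols libraries were made with the TruSeq RNA Library Kit v2. How strand and multi-mapping reads were treated is not given in the sources used here. From 52897 lines, 38 broken lines of 12 genes were left out. Columns were mapped to samples by their labels.

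Counts were fitted with edgeR 4.0.16 (R 4.3.3; TMM, filterByExpr with a count minimum of 10 and a total of 15, robust quasi-likelihood test, all 12 libraries in 1 fit) and p-values adjusted by Benjamini-Hochberg over 16051 genes at 0.05. SE is the log2 fold change over the root of F. RPKM is CPM per kilobase of the deposited length. The method was tested on simulated data. The 10 genes and all lists were chosen with earlier results of these data known. Named genes were the 10, for every list the 2 called genes of lowest adjusted p per direction in each comparison with control, genes within 100 kb of ADSS1 or overlapping a purine gene, and the 5 genes most like ADSS1. A gene that this rule picks is not reported here. Alternatives were RLE factors, DESeq2 1.42.0, a stricter and no count filter, the compared groups alone, a replicate block and leaving out each library.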

Additional observations from a re-analysis of the deposited data

How the results depend on the processing

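No called gene among those tested again under the alternatives changed direction, but log2 differences of purine genes within 0.02 of 0 changed sign, for example GART under mtLys (−0.07 to 0.04). With no low-count filter, the balance of higher and lower calls turned under mtAsn-2 (3862 and 4337 to 4268 and 3955) and for mtAsn-1 against mtAsn-2 (3949 and 3516 to 3521 and 3823). The ADSS1 log2 difference ranged over the alternatives from −1.81 to −1.70 with mtAsn-1, −1.73 to −1.59 with mtAsn-2 and −1.22 to −1.06 with mtLys, all without change of direction, and it had too few reads to be tested under the stricter count filter. Leaving out each library in turn gave 6737 to 7898 called genes with mtAsn-1 (7787 with all libraries), 7457 to 8524 with mtAsn-2 (8199) and 6758 to 8167 with mtLys (7785), and, for mtAsn-1 against mtLys, 404 to 922 (845 with all), the only one of these counts to move by more than 1.5 times (558 and 501 without mtAsn-1 replicate 1 and 2, 404 and 417 without mtLys replicate 2 and 3); fewer samples enter those fits. In their deviations from group means, same-numbered libraries correlated at −0.0991 to 0.0417 and differently numbered ones at −0.0978 to 0.123. Same-numbered libraries were thus no more alike. These correlations cannot settle whether they shared a culture or batch. With the replicate block the counts were 7503, 7944 and 7504 against control, 7153 for mtAsn-1 against mtAsn-2, 676 for mtAsn-1 against mtLys and 7489 for mtAsn-2 against mtLys, and the lists around the purine path had 49, 58 and 44 called, none moving by over 1.5 times. The ADSS2 call under mtAsn-2 was also lost with no count filter and with the compared groups alone. On raw counts instead of per length, the ADSS1 share was 11.4% in control and 3.66%, 4.3% and 5.73% with the LNAs. ADSS1 rests on 43 to 263 reads per library, which limits its precision more than that of the other 9 genes.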

Other observations

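MTAP, which salvages methylthioadenosine, had 0 reads in the 12 libraries together. At 3 counts, the limit that a count of 0 allows is 0.0808 CPM in the deepest library and 0.171 CPM in the shallowest, for counting error only. Of the AMP deaminases, AMPD1, known from muscle, was not tested for too few reads, and it stayed at or under 0.0745 CPM in every library.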
